A study of Mus musculus with 6 samples.

Results

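The genes described here encode the BMP and activin ligands, receptors and antagonists: the BMP ligands *Bmp2*, *Bmp4* and *Bmp7*, the activin subunits *Inhba* and *Inhbb*, the antagonists *Fst* (follistatin) and *Grem1* (gremlin 1), and the type I receptors *Acvr1*, *Acvr1b* and *Acvr1c*. They were chosen by gene symbol, and all 10 were among the 15280 genes of the table. RNA-Seq was carried out on 3 mammary tumors and on the normal mammary gland adjacent to each tumor. Both tissues came from the same 3 female BK5.ATF3 mice, in which the bovine cytokeratin 5 promoter drives ATF3 in basal epithelial cells, so the normal glands were transgenic as well and no wild-type gland was compared. The females had raised a litter, tumors appeared at an age of 6 to 12 months, and each mouse was killed once its tumor was 1.5 cm long. The libraries of the normal glands are M11035, M11640 and M9232, and those of the tumors are T11035, T11640 and T9232, where the number names the mouse. Values below follow this order.

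BMPs and activins are secreted dimers of the TGF-β superfamily. A ligand brings type II receptors together with type I receptors, which phosphorylate Smad1, Smad5 and Smad9 in the BMP branch and Smad2 and Smad3 in the activin branch, and these enter the nucleus with Smad4. Follistatin binds activins and gremlin 1 binds BMPs outside the cell, so that the ligand does not reach its receptor. In the mammary gland, activin and BMP signals are known from work on ductal growth, on alveolar development and on tumors.

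*Inhba* and *Acvr1c* stood at the extremes of the results and *Inhbb*, the other activin subunit, changed least, so the sequences upstream of these 3 genes are shown. RefSeq promoter windows (table built on GRCm38.p6) were found for 7 of the 10 genes, and each was matched letter for letter to 1 place in the mm9 genome, the build used for the reads. The bases before the annotated gene are given on the gene's strand from 5′ to 3′ in lower case, and capitals mark the letters TATAAA. The *Inhba* sequence is chr13:16103434-16103683 (plus strand), the *Inhbb* sequence is chr1:121318826-121319075 (minus strand) and the *Acvr1c* sequence is chr2:58210307-58210419 (minus strand). The last of these is shorter because the annotated gene begins inside the window.
Inhba: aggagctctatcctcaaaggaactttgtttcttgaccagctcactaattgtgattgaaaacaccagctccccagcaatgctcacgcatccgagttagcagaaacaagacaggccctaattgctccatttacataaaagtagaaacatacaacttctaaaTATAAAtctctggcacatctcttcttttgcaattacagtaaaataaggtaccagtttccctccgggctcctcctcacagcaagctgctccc
Inhbb: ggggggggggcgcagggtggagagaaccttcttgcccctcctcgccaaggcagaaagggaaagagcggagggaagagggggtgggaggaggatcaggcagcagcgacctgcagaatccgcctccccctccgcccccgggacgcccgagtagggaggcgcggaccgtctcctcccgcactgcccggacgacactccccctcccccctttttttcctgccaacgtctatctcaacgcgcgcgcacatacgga
Acvr1c: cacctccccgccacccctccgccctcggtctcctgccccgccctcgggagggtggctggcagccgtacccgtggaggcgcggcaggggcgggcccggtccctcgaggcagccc
The 250 bases upstream of *Inhba* held 43.2% G and C and 3 CpG dinucleotides, and those upstream of *Inhbb* held 68% and 21. The outer of the 2 *Acvr1c* windows, also 250 bases long, held 79.6% and 32, against medians of 52.4% and 6 over 32851 mouse promoters. The letters TATAAA, searched on both strands, began 91 bases before the *Inhba* start (position -91) and were in 12.4% of all promoters. ATF3 is a bZIP factor of the family that binds AP-1 and CRE elements. Neither TGAGTCA nor TGACTCA (AP-1) was in any of the 8 windows of these genes, against 4.46% of all promoters. TGACGTCA (CRE) was in 0 of 8, against 1.55%, which describes these 250 bases only. At such low shares 0 of 8 is a likely count, so it does not tell whether ATF3 binds near these genes. *Bmp2*, *Bmp7* and *Fst* had no window, and the *Acvr1* window and the inner *Acvr1c* window lay inside the annotated gene.

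Before the results, the tissues were compared with cell type markers. The depth was 4750989 to 7806908 fragments on genes per library, for which 3 fragments correspond to 0.393 to 0.610 CPM, the fragments on a gene scaled to the library size. All 12 adipocyte markers fell in the tumors, from a summed level of 6713 to 12439 CPM in the normal glands to 271 to 428 CPM, and 8 of 10 epithelial markers rose, from 229 to 502 CPM to 2036 to 2700 CPM. The epithelial sum of the glands was highest in M9232 (502 CPM), against 229 CPM in M11035 and 284 CPM in M11640. Of 12 fibroblast markers 5 rose and 1 fell (sum 1329 to 5004 CPM in the glands and 12355 to 14202 CPM in the tumors), and all 10 squamous markers rose (8.13 to 9.99 CPM and 2793 to 4570 CPM, with *Lor* at 0 in every gland). Of the endothelial markers 3 of 10 fell (sum 416 to 564 CPM and 265 to 374 CPM), as did 1 of 9 macrophage markers (1067 to 3850 CPM and 1134 to 2365 CPM), while 4 of 8 smooth muscle and myoepithelial markers fell and 1 rose (460 to 757 CPM and 217 to 267 CPM). Normal glands M11035 and M11640 stood apart in 10 skeletal muscle genes, which summed to 4405 and 1718 CPM there, to 9.58 CPM in M9232 and to 9.04 to 21.0 CPM in the tumors. *Acta1*, *Ckm*, *Actn3* and *Pvalb* were at 0 in M9232. *Atf3* itself was 4.47, 8.09 and 22.6 CPM in the normal glands and 13.4, 18.3 and 19.3 CPM in the tumors, which overlap (log2 fold change 0.80, adjusted p = 0.223, limma). That gene was called up without gland M9232 (1.41, adjusted p = 0.00804, range over its alternatives 0.00804 to 0.594). Its log2 fold change was 0.30 without gland M11035 and -0.41 with M9232 as the only normal gland. Reads do not tell here whether these *Atf3* transcripts came from the transgene. In these tissues, fewer cells of a type and less RNA per cell cannot be told apart.

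A gene was called when its adjusted p was at most 0.05 and its log2 fold change, on log2(CPM + 0.5), was at least 1 in size. On this rule 14.5% of all genes were called up and 13.7% down. Of the 10 BMP and activin genes, 7 rose, 1 fell and 2 were not called. With M9232 as the only normal gland, since the other glands held skeletal muscle transcripts, 5 rose and 1 fell. The tumors lay above all normal glands for 8 of them, against 27.6% of all genes, and below for 1, against 26.3%. The median log2 fold change over the 10 genes was 2.27, and it was 0.00 (-0.003) over all genes. By role, 4 of 5 ligands and both antagonists rose, while the 3 receptors gave 1 rise, 1 fall and 1 gene that was not called.

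**Figure D1:**
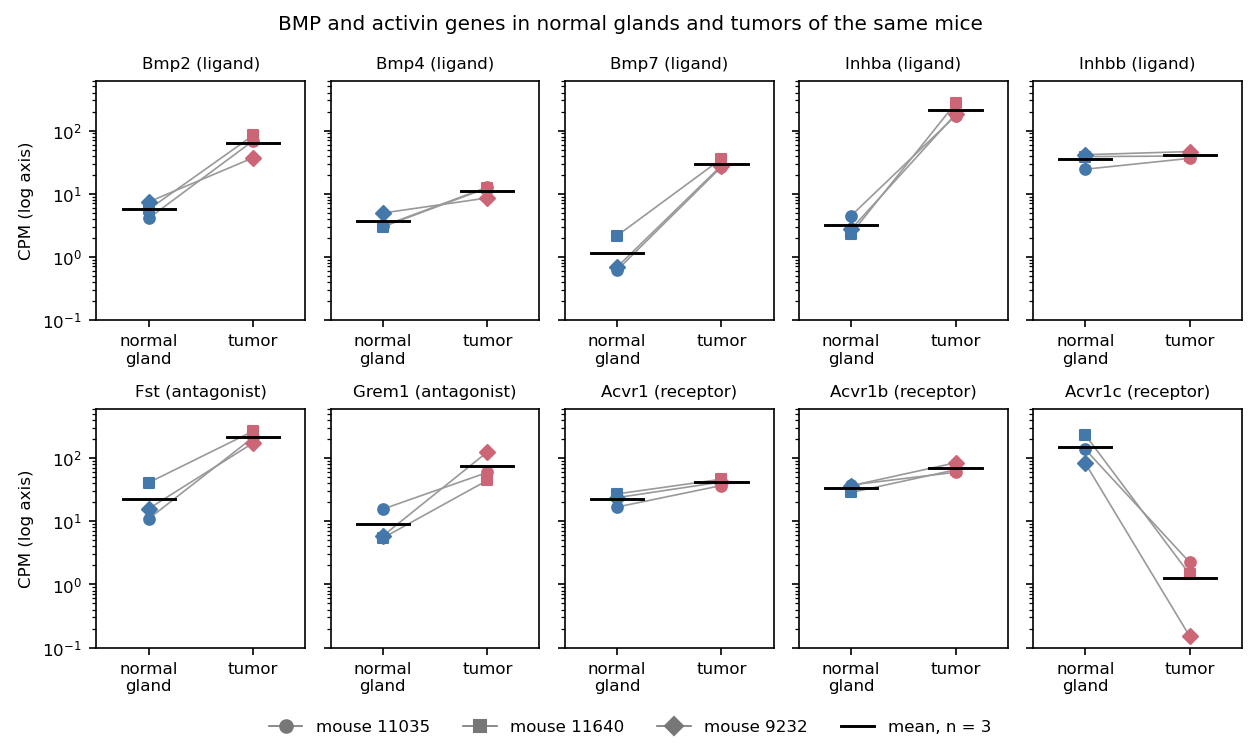
Level of each of the 10 genes in CPM (log axis) in the normal gland and the tumor of each mouse. Points are libraries, grey lines join the tissues of a mouse and black bars are means of 3 libraries; *Inhbb* alone overlaps between the tissues, and *Acvr1c* alone is lower in the tumors.

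Among the activin subunits, *Inhba* (mm9 chr13:16103684-16119044, plus strand), which encodes the βA subunit of activin A, had the largest rise of the 10 genes. Its level was 4.47, 2.31 and 2.74 CPM in the normal glands and 172, 272 and 182 CPM in the tumors. Every tumor was far above every gland, with a mean of 3.17 ± 1.14 (SD, n = 3) against 209 ± 55.0 CPM. The log2 fold change was 5.84 (SE 0.27, 95% CI 5.23 to 6.45, adjusted p = 2.24e-06). Within mice, the log2 differences were 5.11, 6.60 and 5.82.

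*Inhbb* (chr1:121312042-121318825, minus strand), which encodes the βB subunit of activin B, was 24.4, 38.7 and 41.5 CPM in the normal glands and 36.3, 39.6 and 46.5 CPM in the tumors. The groups overlapped. The log2 fold change was 0.25 (SE 0.23, adjusted p = 0.401), and its 95% CI of -0.26 to 0.77 lies below a doubling. The ratio between the subunits, *Inhba* to *Inhbb*, each per kb of exon, was 0.394, 0.129 and 0.142 in the normal glands and 10.2, 14.8 and 8.42 in the tumors. On the log2 scale of CPM the ratio was higher in the tumors by 5.59 and the groups did not overlap (exact permutation test, two-sided p = 0.1, adjusted over 5 ratios 0.125). With 3 against 3 libraries 0.1 is the smallest p this test can give.

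Of the BMP ligands, *Bmp7* (chr2:172693513-172765822, minus strand) rose the most. It was near the detection limit in 2 glands, at 0.610, 2.15 and 0.684 CPM (3, 13 and 5 fragments), and reached 26.6, 35.6 and 27.9 CPM in the tumors. All 3 tumors were above all glands (log2 fold change 4.32, SE 0.36, adjusted p = 3.78e-05). *Bmp2* (chr2:133377895-133388621, plus strand), a ligand best known from bone and heart development, was 4.07, 5.62 and 7.39 CPM in the glands and 68.7, 83.7 and 37.0 CPM in the tumors. The groups were well apart, and the mouse with the highest gland had the lowest tumor. Its log2 fold change was 3.32 (SE 0.33, adjusted p = 1.03e-04), with 3.92, 3.78 and 2.25 within mice.

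*Bmp4* (chr14:47003195-47010344, minus strand), a close relative of *Bmp2*, was 3.05, 2.97 and 4.92 CPM in the glands and 12.7, 12.3 and 8.54 CPM in the tumors. It rose least among the BMP ligands (log2 fold change 1.50, SE 0.28, adjusted p = 0.00294), again with the smallest difference in the mouse of T9232 (1.89, 1.88 and 0.74). With M9232 as the only normal gland *Bmp4* was no longer called (1.09, adjusted p = 0.0773, range over its alternatives 2.11e-04 to 0.0773). The ratio of *Bmp4* to *Bmp2* per kb was 1.29, 0.912 and 1.15 in the glands and 0.317, 0.253 and 0.398 in the tumors. On the log2 scale of CPM it was lower in the tumors by 1.82 without overlap (tumor minus normal -1.82, exact permutation p = 0.1, adjusted 0.125).

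The antagonists rose beside the ligands. *Fst* (chr13:115242470-115249159, minus strand) was 11.0, 41.1 and 15.9 CPM in the normal glands and 214, 270 and 175 CPM in the tumors. The tumors were all above the highest gland, M11640, which also had the highest adipocyte and fibroblast marker sums of the glands. The log2 fold change was 3.45 (SE 0.42, adjusted p = 3.07e-04). The ratio of *Inhba* to its antagonist *Fst*, each per kb of exon, was 0.553, 0.0763 and 0.234 in the glands and 1.09, 1.37 and 1.41 in the tumors. The log2 ratio of CPM was higher in the tumors by 2.40, without overlap (exact permutation p = 0.1, adjusted 0.125). The difference was 1.69 without gland M11640 and 3.03 without gland M11035.

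*Grem1* (chr2:113586321-113598803, minus strand) was 15.7, 5.45 and 5.88 CPM in the glands and 59.7, 44.7 and 126 CPM in the tumors. The groups did not overlap, and T9232 was the highest (log2 fold change 3.04, SE 0.46, adjusted p = 0.00106). Within mice the log2 differences were 1.90, 2.92 and 4.31, so that the mouse of T9232, with the smallest rise of *Bmp2* and *Bmp4*, had the largest rise of *Grem1*. Per kb, *Bmp4* to *Grem1* was 0.392, 1.10 and 1.68 in the glands and 0.426, 0.554 and 0.137 in the tumors. These overlap, and the log2 ratio of CPM was -1.07 ± 1.01 in the glands and -2.60 ± 1.05 in the tumors (difference -1.54, exact permutation p = 0.2, adjusted 0.2). Leaving out 1 library gave differences between -2.10 (without M11035) and -0.94 (without T9232). Gremlin 1 and follistatin are often made by fibroblasts. The fibroblast marker sum given above rose in the same tumors, mostly through *Postn*, *Col3a1*, *Col1a2* and *Col1a1*. Of the 12 markers 5 rose, 1 fell and 6 were not called, *Pdgfra* and *Dcn* among the last. The part of fibroblasts in the rise of *Grem1* and *Fst* was not tested.

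**Figure D2:**
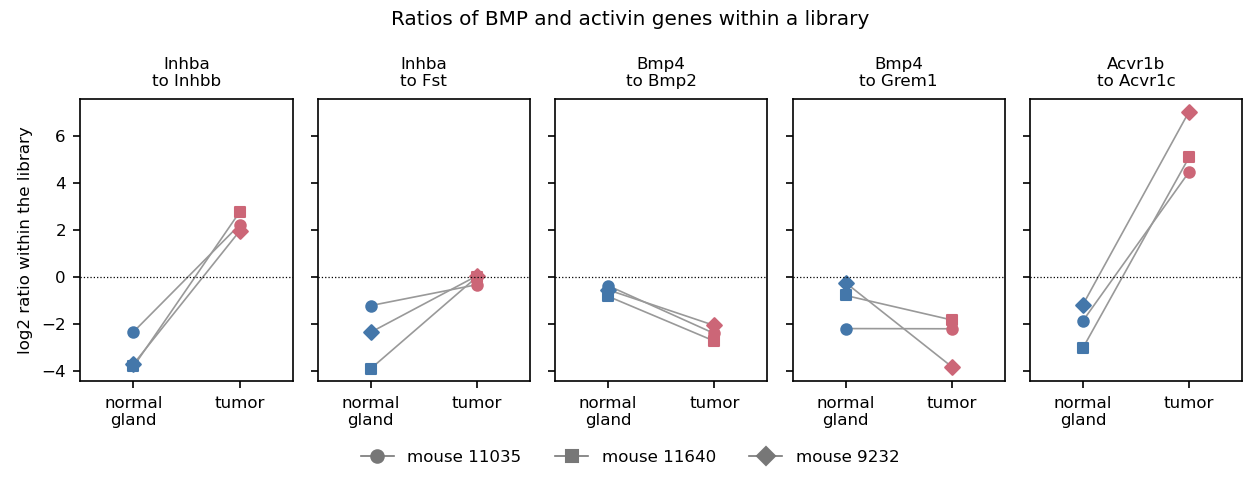
Log2 ratio of the CPM of 2 genes within each library for the 5 ratios tested, with lines joining the normal gland and tumor of a mouse. The tissues separate in 4 of the ratios and overlap for *Bmp4* to *Grem1*.

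Among the type I receptors, *Acvr1c* (ALK7, chr2:58119864-58210306, minus strand), a receptor for activin B and related ligands that is known for its high level in adipocytes, fell. Its level was 138, 235 and 83.2 CPM in the normal glands and 2.23, 1.44 and 0.150 CPM in the tumors, the latter from 12, 11 and 1 fragments. The mean fell from 152 ± 76.6 to 1.27 ± 1.05 CPM, 119-fold lower, with no overlap (log2 fold change -6.53, SE 0.55, adjusted p = 4.14e-05). Without tumor T9232 the log2 fold change was -5.92. The adipocyte markers fell in the same libraries, from sums of 8245, 12439 and 6713 CPM to 271, 428 and 281 CPM. *Acvr1c* and the sum of these markers had the same order in the glands, highest in M11640 and lowest in M9232, which not every single marker shared. Relative to the summed adipocyte markers, *Acvr1c* was 1.67%, 1.89% and 1.24% in the glands and 0.825%, 0.337% and 0.0534% in the tumors, which do not overlap. *Fabp4* and *Lpl* made up most of this sum, with means of 3744 and 3777 CPM in the glands. Both fell by less than *Acvr1c* (log2 fold changes -4.55 and -4.82). Single markers ranged from -7.00 (*Adipoq*) to -3.23 (*Lipe*), and the -6.53 of *Acvr1c* lies within that range. The part of the adipocyte content in the fall of *Acvr1c* was not tested. Exons of *Acvr1c* overlap those of *Gm13544*. The library kit does not keep strand, so reads there cannot be assigned. *Gm13544* was 8.54, 10.1 and 4.51 CPM in the glands and 0.372, 0.262 and 0 CPM in the tumors. These values do not tell how many reads of the shared exons came from either gene.

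*Acvr1b* (ALK4, chr15:101004556-101043032, plus strand), the main type I receptor of activin A, was 37.8, 28.7 and 36.8 CPM in the glands and 60.1, 65.8 and 85.0 CPM in the tumors. The groups did not overlap and the gene was called at the edge of the rule (log2 fold change 1.01, SE 0.19, adjusted p = 0.00317). Its fold change fell under the threshold with CPM on plain totals (0.9993), with upper-quartile scaling (0.95) and without gland M11640 (0.89) or tumor T9232 (0.87). It was 0.91 with M9232 as the only gland (adjusted p = 0.0537, range over its alternatives 3.46e-05 to 0.0537). *Acvr1* (ALK2, chr2:58241055-58419568, minus strand), a type I receptor of BMPs, was 16.9, 27.3 and 23.8 CPM in the glands and 37.0, 46.7 and 42.1 CPM in the tumors. The groups did not overlap and the adjusted p was under the threshold, yet the fold change was not (0.90, SE 0.21, 95% CI 0.41 to 1.38, adjusted p = 0.00964). Without gland M11640 it was called (1.04, adjusted p = 0.00838, range over its alternatives 0.00212 to 0.0543). The log2 ratio of *Acvr1b* to *Acvr1c* was -1.85, -3.01 and -1.17 in the glands and 4.47, 5.09 and 7.04 in the tumors, a difference of 7.54 (exact permutation p = 0.1, adjusted 0.125) that was 6.79 without tumor T9232.

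**Figure D3:**
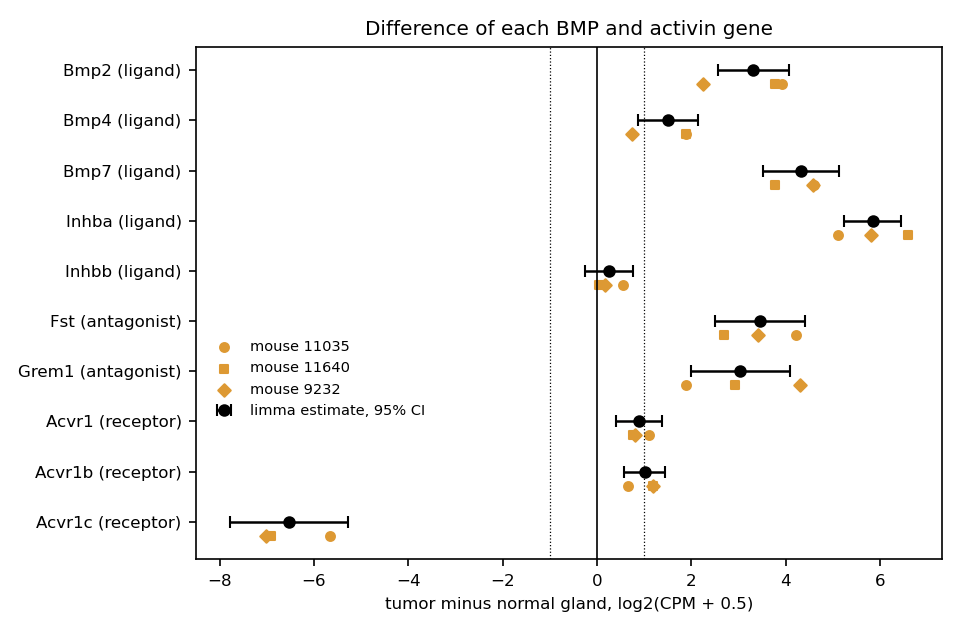
Tumor minus normal gland on log2(CPM + 0.5) for each gene. Black points are limma estimates with 95% confidence intervals, colored points the differences within each mouse, and dotted lines a log2 fold change of -1 and 1; *Inhba* is highest at 5.84 and *Acvr1c* lowest at -6.53.

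Dividing by exon length allows levels of different genes to be compared. In the normal glands, *Acvr1c* was first at 16.4 ± 8.25 CPM per kb (SD, n = 3), followed by *Acvr1b* (10.5 ± 1.52), *Fst* (8.43 ± 6.02), *Inhbb* (8.19 ± 2.15) and *Acvr1* (6.04 ± 1.41). Neighbors in this stretch overlapped between libraries. A gap followed to *Grem1* (2.17 ± 1.39), *Bmp4* (1.77 ± 0.535), *Inhba* (1.60 ± 0.578) and *Bmp2* (1.60 ± 0.467), which overlapped as well, and *Bmp7* was last at 0.313 ± 0.236, under all glands of *Bmp2*.

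In the tumors *Inhba* was first at 105 ± 27.8 CPM per kb and *Fst* next at 81.7 ± 17.7, with overlap between them and a gap to *Acvr1b* at 21.4 ± 3.98. *Grem1* (18.5 ± 10.4), *Bmp2* (17.8 ± 6.71), *Acvr1* (11.2 ± 1.28), *Inhbb* (9.58 ± 1.22) and *Bmp7* (8.19 ± 1.33) followed, each overlapping the next. *Bmp4* (5.41 ± 1.11) was below all of these and *Acvr1c* was last at 0.137 ± 0.113. *Inhba* thus went from the eighth place in the glands to the first in the tumors and *Acvr1c* from the first to the last. With the longest coding transcript as the length, a choice added after the data were seen, both orders were the same and only *Acvr1* and *Inhbb* in the tumors no longer overlapped.

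**Figure D4:**
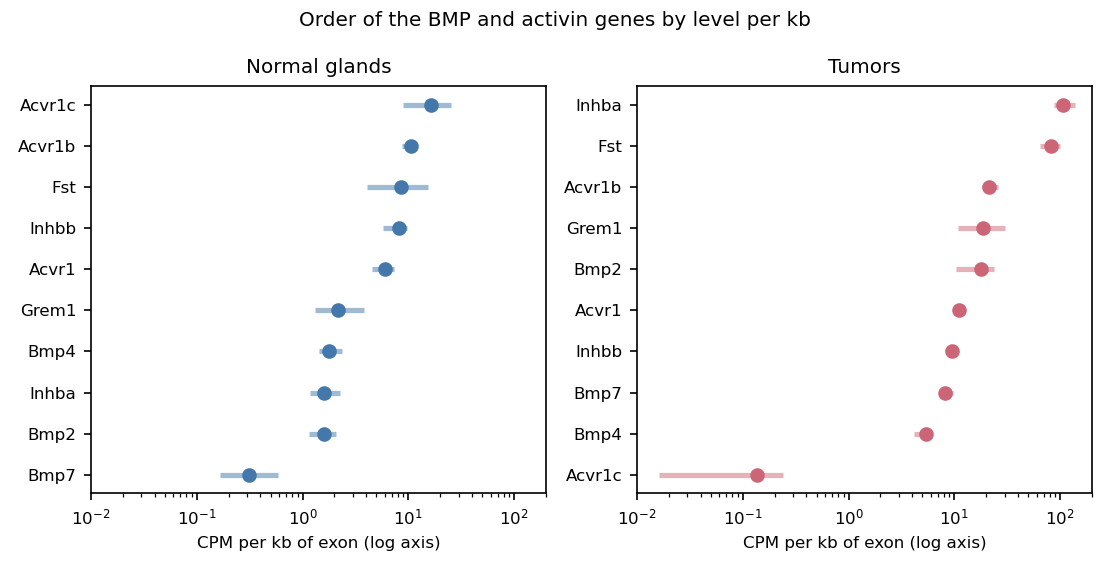
The 10 genes in order of their mean level in CPM per kb of exon (log axis), in normal glands and in tumors. Points are means of 3 libraries and bars run from the lowest to the highest library; *Inhba* and *Fst* stand above the other genes in the tumors.

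The other genes of the pathway were grouped in 6 lists by role, which held 92 genes, of which 65 were in the table. Over all genes, 14.5% were called up and 13.7% down, and the counts here and by list below are to be read beside these shares. Of the 65 pathway genes 16 rose and 8 fell, with a median log2 fold change of 0.58. With M9232 as the only normal gland, 10 rose and 4 fell. Among the other ligands, 2 of 11 rose and 2 fell. *Gdf6*, a BMP-like growth factor, was 0.407, 0.991 and 1.50 CPM in the glands and 3.91, 5.90 and 10.04 CPM in the tumors (log2 fold change 2.26, adjusted p = 0.00316). *Inha*, the subunit that turns an activin dimer into inhibin, rose from between 0.410 and 0.813 CPM to between 1.50 and 4.47 CPM (1.38, adjusted p = 0.0275). *Bmp3*, known as a BMP that opposes the others, fell from 45.9, 116 and 84.3 CPM to 11.0, 11.5 and 28.6 CPM (-2.28, adjusted p = 0.0031), and *Bmp6* fell from between 2.64 and 5.45 CPM to between 0.372 and 1.31 CPM (-1.73, adjusted p = 0.00922). *Mstn* (myostatin), a ligand made by skeletal muscle, was 77.7, 51.5 and 0 CPM in the glands and 0.186, 0 and 0 CPM in the tumors and was not called (adjusted p = 0.0535, range over its alternatives 4.25e-06 to 0.821). It was called down with the replicate block (adjusted p = 0.0281), by edgeR (0.0107) and DESeq2 (0.0083) and without M9232 (4.25e-06), and with M9232 as the only gland its log2 difference was 0.15. With the replicate block 4 of the 11 other ligands were called down, and by edgeR and DESeq2 3. Its 2 high glands are those with skeletal muscle transcripts.

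Among the other receptors and co-receptors, 2 of 12 rose and 2 fell. *Bambi*, a pseudoreceptor without a kinase domain that dampens BMP and activin signals and is itself a BMP target, was 1.83, 2.48 and 3.97 CPM in the glands and 25.3, 39.8 and 20.1 CPM in the tumors (log2 fold change 3.14, SE 0.33, adjusted p = 1.4e-04). *Tdgf1* (Cripto), a co-receptor of the TGF-β superfamily, rose from between 0.330 and 0.821 CPM to between 1.97 and 3.35 CPM (1.54, adjusted p = 0.00906). The BMP co-receptors *Rgma* and *Hfe2* fell (-1.97, adjusted p = 0.0172, and -2.43, adjusted p = 0.0202). The log2 fold change of *Rgma* was -1.29 without tumor T11640. That of *Hfe2* was -1.78 without gland M11035, where it was not called, and -3.25 without gland M9232. *Hfe2* also lost its call without gland M11640 and without tumor T11640 or T9232. With M9232 as the only normal gland its log2 fold change was -0.79. *Hfe2* (hemojuvelin), which skeletal muscle expresses, was 7.52, 3.63 and 0.547 CPM in the glands and at 1, 0 and 1 fragments in the tumors. The part of the skeletal muscle transcripts in its fall was not tested. *Bmpr1a* (0.86, adjusted p = 0.00682) and *Bmpr2* (0.91, adjusted p = 0.00848), receptors for BMPs, passed the p threshold but not the fold threshold. Without gland M11640 *Bmpr2* was called up (1.09, adjusted p = 0.00444, range over its alternatives 0.0015 to 0.0432). *Acvr2a* (0.02, adjusted p = 0.939) and *Acvr2b* (0.82, adjusted p = 0.138), the activin type II receptors, passed neither threshold.

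Of the other antagonists and extracellular modulators, 3 of 12 rose and 3 fell. *Fstl1*, a follistatin-like secreted protein, was 90.1, 364 and 166 CPM in the glands and 1388, 1612 and 1250.5 CPM in the tumors (log2 fold change 3.00, SE 0.42, adjusted p = 6.74e-04), and *Nbl1* (DAN) also rose (1.82, adjusted p = 0.0148). In contrast, *Chrdl1*, a chordin-like BMP antagonist, fell from 27.0, 50.9 and 33.9 CPM to 0.930, 1.70 and 1.50 CPM (-4.31, SE 0.30, adjusted p = 1.61e-05). *Chrdl2* fell from 1.83, 1.49 and 19.6 CPM to 0, 1 and 0 fragments (log2 fold change -3.07, adjusted p = 0.0151, with -3.66 without gland M11640 and -1.99 without gland M9232) and *Vwc2* from 3, 4 and 11 fragments to 0 in all tumors (adjusted p = 0.0221). *Nog* and *Chrd* were on this list but not among the genes of the table, so they could not be analysed.

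**Figure D5:**
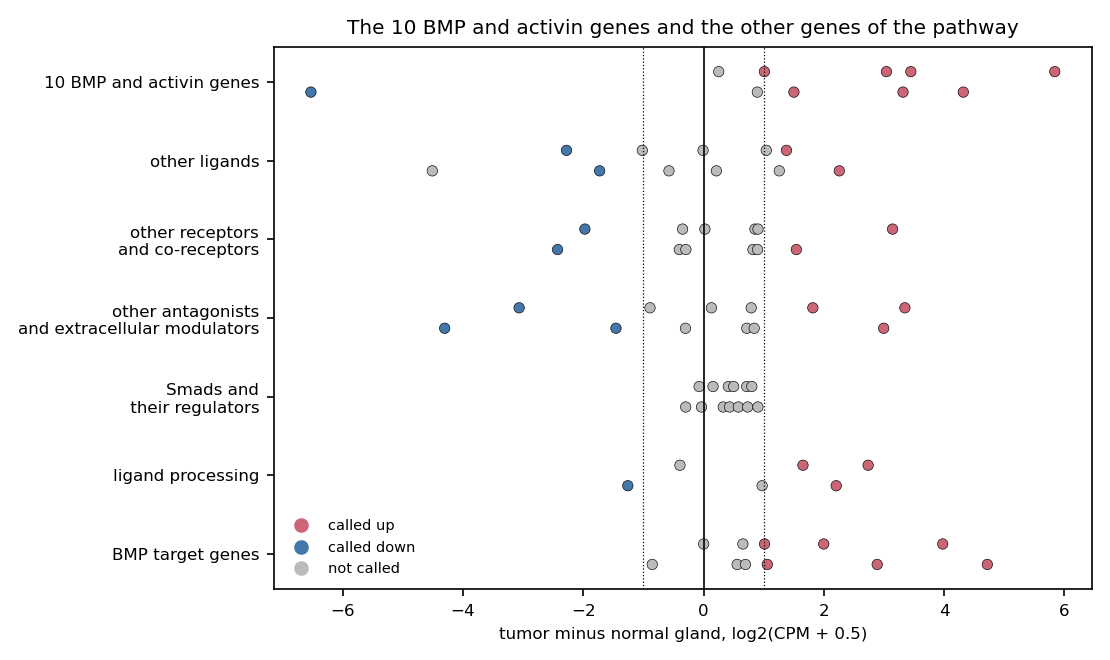
Tumor minus normal gland on log2(CPM + 0.5) for the 10 genes and for the 65 other genes of the pathway by list, with dotted lines at -1 and 1. Each point is a gene, colored by its call; 0 of the 13 Smad genes and regulators is called, while the 10 genes and the antagonists spread to both sides.

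The Smads transduce these signals in the cell. Of 13 Smads and their regulators 0 were called up and 0 down by limma, and edgeR and DESeq2 called 0 as well. At an unadjusted p under 0.05 there were 7 genes higher and 0 lower in limma, and 6 passed the adjusted threshold with a log2 fold change under 1. *Skil*, which encodes the Smad repressor SnoN, had the largest difference (190, 174 and 194 CPM against 338, 392 and 320 CPM, log2 fold change 0.90, adjusted p = 9.58e-04). *Smad1* (0.50, adjusted p = 0.0296) and *Smad5* (0.43, adjusted p = 0.026) of the BMP branch did not overlap between the groups. *Smad2* of the activin branch did not overlap either (0.16, adjusted p = 0.371), while *Smad3* overlapped (-0.03, adjusted p = 0.883). The tumors lay above all glands for 27.6% of all genes. *Smad4* (-0.07, adjusted p = 0.697) and the inhibitory *Smad6* (0.74, adjusted p = 0.211) and *Smad7* (0.72, adjusted p = 0.0826) did not pass the p threshold. Without gland M11035, *Smad7* was called up (1.05, adjusted p = 0.00715, range over its alternatives 0.00715 to 0.219).

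Of the genes that process the ligands, 3 of 6 rose and 1 fell by limma, while edgeR and DESeq2 each called 4 up. *Furin*, the convertase that cleaves TGF-β family precursors, lay at the edge of the rule (log2 fold change 0.98, adjusted p = 0.00334 by limma, 1.0 by edgeR and 1.01 by DESeq2). *Bmp1*, which is a metalloprotease that cleaves chordin and procollagen and not a BMP, was 6.71, 13.2 and 5.47 CPM in the glands and 53.0, 54.4 and 59.2 CPM in the tumors (log2 fold change 2.74, adjusted p = 1.59e-04). Its relative *Tll1* (1.65, adjusted p = 0.00464) and the proprotein convertase *Pcsk5* (2.21, adjusted p = 6.81e-04) rose, and *Pcsk6* fell (-1.26, adjusted p = 0.0243).

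Genes known as targets of BMP signals rose in 6 of 11 cases and fell in 0. By edgeR and DESeq2 0 were called down too. At an unadjusted p under 0.05, 0 were lower in limma and 1 in each of edgeR, DESeq2 and the fit with the replicate block. *Hey1*, a Notch and BMP target, had the lowest log2 fold change of the list (-0.85, adjusted p = 0.105, range over its alternatives 0.018 to 0.294), and it was called down without gland M11035 (-1.23, adjusted p = 0.018). *Id1*, an early BMP target that blocks bHLH factors, was 2.85, 3.63 and 1.23 CPM in the glands and 13.6, 13.1 and 7.49 CPM in the tumors (log2 fold change 2.0, SE 0.38, adjusted p = 0.00347). *Id3* was 12.6, 14.0 and 8.21 CPM in the glands and 20.7, 25.4 and 27.0 CPM in the tumors (1.06, adjusted p = 0.00779), and *Id2* was at 21.6, 23.8 and 42.7 CPM against 24.0, 30.7 and 30.0 CPM (0.00, 95% CI -0.60 to 0.61, adjusted p = 0.994).

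The homeobox genes *Dlx3* and *Dlx5* were nearly absent from the glands, with 0, 3 and 2 fragments and 0, 1 and 0 fragments. They were at 17.3, 21.5 and 17.5 CPM and at 3.91, 3.54 and 3.30 CPM in the tumors (adjusted p = 1.49e-05 and 2.15e-04). *Gata2*, a zinc finger factor, rose from 2.44, 4.46 and 3.01 CPM to 46.7, 51.2 and 81.7 CPM (log2 fold change 3.98, adjusted p = 1.9e-05). *Msx2* rose at the edge of the rule (1.02, adjusted p = 0.0253). *Dlx3* is also known from the differentiation of the epidermis, and all 10 squamous markers were higher in the same tumors. The part of squamous cells in the rise of *Dlx3* was not tested.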

How the data were processed

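RNA-Seq data of 3 tumors and the 3 adjacent normal glands of the same mice were used, and 0 columns were left out. According to the paper's methods and the submitters' processing notes, total RNA was amplified with the Ovation RNA-Seq System V2, all libraries were sequenced together, and read pairs were mapped to mm9 with TopHat2 2.0.3 and counted per RefSeq gene with HTSeq 0.5.3p9. Libraries of this kit do not mark strand. The authors deposited a normalized signal per gene, CPM on edgeR's effective library size, for genes with at least 10 fragments. Dividing by the step between low values gave whole fragments for 100% of them (within 0.1 fragment). Precision is limited by 3 mice and, for low genes, by counting.

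Differences were tested with limma 3.58.1 (mean-variance trend, no block) on log2(CPM + 0.5), with Benjamini-Hochberg adjustment over 15280 genes. This test on the log scale was chosen for normalized values; edgeR 4.0.16 and DESeq2 1.42.0 on the recovered fragments were alternatives. Other alternatives were other pseudocounts, filters and scalings, a replicate block, the leaving out of each library, and M9232 as the only normal gland. The 3 tools were tested on simulated data. M9232 as the only gland was added after seeing the data, as were the skeletal muscle genes. Ratios were compared by exact permutation tests. The genes, the lists and the tests were chosen with earlier results of these data known. All 10 genes were named. Of each pathway list, up to 6 called genes with the largest fold changes were named, plus a set of receptors, Smads and *Id* genes. *Skil*, *Smad2*, *Smad3*, *Mstn*, *Furin* and *Hey1* were named after their values were seen. A gene that the rule names is not reported here. Marker lists served only to describe the tissues. Gene positions and exon lengths are from GENCODE vM1 on mm9. None of the 10 genes had a near copy (95% identity over 500 bases) among other coding transcripts.

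Tumor and gland with the same number are from 1 animal, as the labels show, and this pairs the samples. Over 14712 genes, the deviations of the matched libraries from the group means correlated with r = 0.107, 0.151 and 0.0168, and those of unmatched gland and tumor with r from -0.168 to 0.0405. Fragments of any 2 libraries of a tissue differed beyond sampling noise (chi-square over degrees of freedom at least 13.0), so none was a copy.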

Additional observations from a re-analysis of the deposited data

How the results depend on the processing

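With the replicate block (mouse as a term), 7 of the BMP and activin genes rose and 1 fell, as without it, and 2205 of all genes rose and 2093 fell against 2212 and 2097; the paired fit changed no call of the 10 genes and gave 16 up and 10 down over the pathway lists, *Mstn* among those down. Over the 17 alternatives, *Inhba*, *Bmp2*, *Bmp7*, *Fst*, *Grem1*, *Acvr1c* and *Inhbb* kept their side of the thresholds; the exceptions *Bmp4*, *Acvr1* and *Acvr1b* are described with their values. With M9232 as the only normal gland, whose spread is then assumed to be that of the tumors, 5 of the 10 genes rose and 1 fell, all genes gave 1667 and 1539 calls, and the pathway lists gave 10 up and 4 down in place of 16 and 8; *Gdf6*, *Bmp6*, *Rgma*, *Tdgf1* and *Tll1* lost their call there. This fit has fewer samples. *Msx2*, *Inha*, *Hfe2*, *Pcsk6*, *Nbl1*, *Id3*, *Vwc2* and *Chrdl2* each lost their call under at least 1 other setting or without 1 library. Of these, *Msx2*, *Inha*, *Hfe2*, *Pcsk6* and *Nbl1* also lost it with M9232 as the only gland. *Mstn*, *Furin*, *Hey1*, *Smad7* and *Bmpr2* gained a call under at least 1 setting or without 1 library. Genes with few fragments, such as *Bmp7* in the glands and *Acvr1c* in the tumors, have folds that depend on the pseudocount. With 3 mice, the exact tests of the ratios cannot reach 0.05.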
